A study of Mus musculus with 2 samples.

Results

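Integrins and tetraspanins of the macrophage surface were followed here in the nuclear RNA of mouse bone marrow-derived macrophages. The genes were chosen by name alone: every integrin subunit gene (Itga or Itgb with its letter or number), every gene named Tspan with a number, and Cd9, Cd37, Cd53, Cd81, Cd82 and Cd151. The rule found 52 of the 55536 annotated genes, namely 18 integrin alpha subunits, 8 beta subunits and 26 tetraspanins, and the rule uses names only. The cells were primary C57BL/6J macrophages, a laboratory mouse strain, given Lipid A at 100 ng/ml for 10 min. Lipid A is the part of bacterial lipopolysaccharide that Toll-like receptor TLR4 senses. RNA of the nucleoplasmic fraction was sequenced as total RNA after depletion of ribosomal RNA, and other label fields call the fraction nuclear. There was 1 group with 2 libraries, replicate 1 from 1 µg of RNA and replicate 2 from 500 ng, both filed under the same donor identifier. Without an untreated, cytoplasmic or later sample, nothing below compares conditions, and no p-value was computed. Values with ± are the SD over these 2 libraries (n = 2), which may be partly technical.

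Integrins are heterodimers of 1 alpha and 1 beta subunit that bind matrix proteins or counter-receptors on other cells. Which ligand a cell can bind depends on which subunits it makes, and leukocytes are known for the beta2 family. Tetraspanins are small proteins with 4 membrane-spanning helices that gather integrins, proteases and immune receptors into membrane microdomains. In macrophages both families serve adhesion, migration, phagocytosis and cell fusion.

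The libraries held 19153465 expected counts in replicate 1 and 11622346 in replicate 2 on annotated genes. The members took 0.316% and 0.262% of them, or 60470 and 30471 counts. Levels are given as TPM, in which counts are divided by transcript length and scaled to a fixed sum. The log2 levels of the libraries had a Pearson r of 0.935 across 13951 genes averaging 1 TPM or more, a description across genes of 2 libraries. The macrophage label was matched by its markers: 8 of 8 were detected, with Csf1r at 518 ± 19.2 TPM, Lyz2 at 1762 ± 773 TPM and Cd68 at 221 ± 84.5 TPM. Detected meant at least 1 TPM in both libraries. Marker lists of other cell types had 0 of 8 genes detected for T and NK cells, 0 of 6 for stroma, 0 of 6 for epithelium and 0 of 7 for dendritic cells. They had 1 of 6 for B cells (Ighm), 1 of 8 for neutrophils (S100a8) and 2 of 6 for endothelium (Vwf and Kdr). Megakaryocytes and platelets had 3 of 8 (Pf4, Treml1 and Gp1ba). Vwf stood at 38.5 ± 0.912 TPM. A second quantification of the same reads detected 2 of 8 for T and NK cells. Cd3d had 2.53 and 10.1 TPM there, and Thy1 4.07 and 8.71 TPM, in replicates 1 and 2. It gave 1 of 7 for dendritic cells, 3 of 6 for endothelium and 0 of 8 for neutrophils. Megakaryocytes and platelets had 2 of 8 there. The other lists kept their counts.

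Transcripts can change what a gene encodes, and the alpha subunit Itgam, CD11b, the best-known integrin of macrophages, is shown because its main pair differs in the coding sequence. These transcripts, Itgam-203 and Itgam-201, both span the gene on the plus strand of chromosome 7 and differ there only at the start of exon 14. Exon 14 ran chr7:128101634-128101846 in Itgam-201 and chr7:128101637-128101846 in Itgam-203 (mm10, GENCODE M21). The 3 bases by which they differ stand in capitals in the stretch across the junction of exons 13 and 14, read from the GENCODE transcript sequences.
Itgam-203: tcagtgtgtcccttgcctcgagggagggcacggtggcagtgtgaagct
Itgam-201: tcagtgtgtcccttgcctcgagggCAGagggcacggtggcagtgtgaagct
The shorter coding sequence has 3459 bases and the longer one 3462, so the reading frame is kept. The transcripts also differ by 29 bases at their starts and by 1 base at their ends. Itgam-203 had 25.1 and 20.4 TPM in replicates 1 and 2, against 13.6 and 10.6 TPM for Itgam-201. Of the TPM of this pair, Itgam-201 held 34.6 ± 0.775% in the gene table and 34.5 ± 0.859% in the second quantification of the same reads. The longer form was thus the minor one in both libraries and by both estimates.

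Promoter windows, 250 bases before to 50 after a listed gene start, were found for 43 of the 52 members in the RefSeq-based table (GRCm38.p6). The first listed window of each member was used, which need not lie at the GENCODE M21 start. That of Itga9, chr9:118711442-118711741, lies inside the M21 gene, which starts at 118606690 on the plus strand. The Tspan3 window, chr9:56161021-56161320 on the minus strand, lies inside a gene that reaches 56165477. Shown are Cd53 and Cd37, the highest tetraspanins, and Itgam with Itgax, which starts 11055 bases after it. Itgax stood 13.6 ± 1.38-fold below Itgam in TPM, and 9.95 ± 2.63-fold by the second quantification. PU.1, an ETS transcription factor that macrophages need, is known to bind purine-rich sites with the letters GAGGAA. These letters were searched on both strands and are in capitals, read as TTCCTC where they lie on the other strand.
Cd53 (chr3:106790100-106790399, minus strand): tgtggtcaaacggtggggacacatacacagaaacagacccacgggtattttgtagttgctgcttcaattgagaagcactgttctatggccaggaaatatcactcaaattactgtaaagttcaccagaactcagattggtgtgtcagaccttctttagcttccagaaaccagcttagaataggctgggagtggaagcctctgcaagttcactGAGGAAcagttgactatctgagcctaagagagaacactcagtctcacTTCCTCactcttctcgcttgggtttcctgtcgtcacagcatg
Cd37 (chr7:45238790-45239089, minus strand): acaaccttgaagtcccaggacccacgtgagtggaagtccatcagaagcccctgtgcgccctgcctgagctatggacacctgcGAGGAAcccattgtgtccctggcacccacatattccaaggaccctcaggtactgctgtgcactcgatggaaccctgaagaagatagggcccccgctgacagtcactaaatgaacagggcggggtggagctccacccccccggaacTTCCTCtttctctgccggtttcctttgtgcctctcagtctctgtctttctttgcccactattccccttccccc
Itgam (chr7:128062390-128062689, plus strand): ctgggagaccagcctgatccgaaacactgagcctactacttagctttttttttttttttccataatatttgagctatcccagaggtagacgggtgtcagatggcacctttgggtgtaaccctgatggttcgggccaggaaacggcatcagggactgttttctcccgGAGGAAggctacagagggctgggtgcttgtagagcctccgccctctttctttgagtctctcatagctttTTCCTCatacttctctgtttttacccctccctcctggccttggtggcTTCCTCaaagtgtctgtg
Itgax (chr7:128129300-128129599, plus strand): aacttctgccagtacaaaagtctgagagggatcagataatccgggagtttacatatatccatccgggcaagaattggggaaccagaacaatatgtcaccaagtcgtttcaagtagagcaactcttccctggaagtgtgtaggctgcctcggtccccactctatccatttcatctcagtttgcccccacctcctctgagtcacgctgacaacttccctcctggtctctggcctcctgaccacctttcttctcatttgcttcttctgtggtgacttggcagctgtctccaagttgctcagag
Itgam held 3 matches, Cd53 and Cd37 held 2 each, and Itgax held 0. These 4 windows do not stand for the rest. Itga4, the highest alpha subunit, Itgb5, Cd81 and Cd9 also held 0, and Itga2b, not detected, held 2. Of the detected members with a window, 10 of 23 (43.5%) held at least 1 match, against 3 of 20 members not detected (15.0%), 28.3% of all 32851 windows and 27.2% of those of 16522 protein-coding genes. TATAAA, searched on both strands too, was in 1 of 23 windows of detected members and 1 of 20 of the others, against 13.6% of all windows. CCAAT was in 5 of 23 windows of detected members and 4 of 20 of the others, against 37.4% of all windows. The median GC content was 61.3% in the detected members' windows, 57.8% in those of the members not detected and 57.0% over protein-coding genes. A match is a description of letters and says nothing about binding in these cells.

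Of the 52 members, 27 (51.9%) were detected. The background was 23.6% of all genes and 46.0% of the 22028 protein-coding genes, so the members' share was near that of coding genes. The median level over the 27 was 23.6 and 13.0 TPM in replicates 1 and 2, against 10.9 and 9.96 TPM over the 10123 detected protein-coding genes. The members' median was the higher one in both libraries, by a margin that differed between them. By family, 8 of 18 alpha subunits, 5 of 8 beta subunits and 14 of 26 tetraspanins were detected. The threshold of 1 TPM sets this division: the lowest detected member, Tspan5, stood at 1.34 ± 0.445 TPM and the highest of the others at 0.765 ± 0.0636 TPM, and in replicate 2 Tspan5 had 1.02 and Tspan18 0.92 TPM. In this nuclear RNA a lower level per cell and fewer cells making a transcript cannot be told apart.

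**Figure D1:**
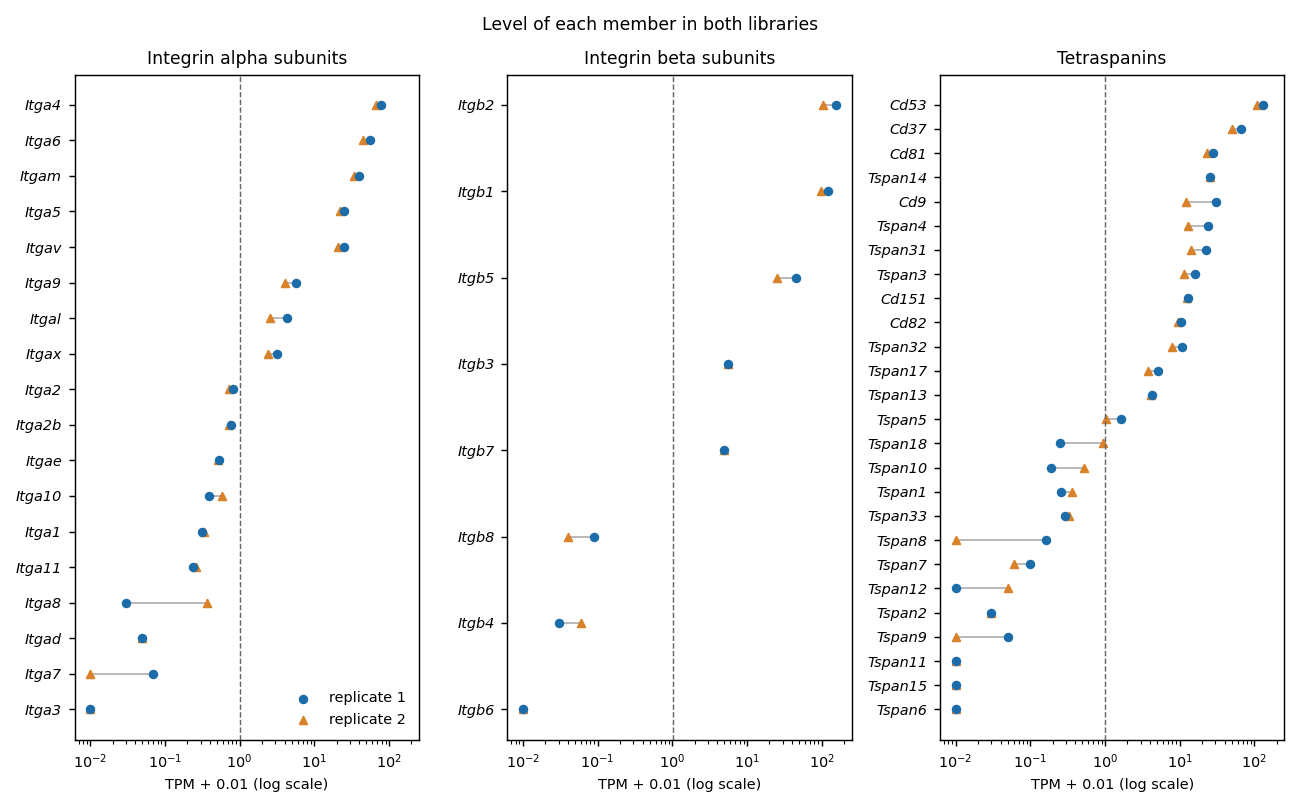
Level of each of the 52 members in replicate 1 (circles) and replicate 2 (triangles) as TPM + 0.01 on a log axis, by family. The dashed line marks the detection threshold of 1 TPM; Itga4 leads the alpha subunits, Itgb2 and Itgb1 the beta subunits and Cd53 the tetraspanins.

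The beta2 integrins, the family that marks leukocytes, were led by the shared subunit. Itgb2 (CD18, chr10:77530252-77565708, plus strand) had 156 and 104 TPM in replicates 1 and 2, the highest level of any member in replicate 1. Its partner Itgam, which forms the complement receptor that takes up opsonised particles, had 39.5 and 34.5 TPM. Itgal, the alpha chain of LFA-1, had 4.27 and 2.55 TPM, and Itgax (CD11c) had 3.12 and 2.36 TPM. Itgad (CD11d) had 0.04 TPM in both libraries, from 3.01 and 2.00 counts. Itgb2 stood 2.99 ± 0.477-fold above the sum of its 4 alpha partners in TPM, and 2.06 ± 0.297-fold by the second quantification. Itgam stood 11.4 ± 3.02-fold above Itgal, and 7.83 ± 0.255-fold by the second quantification. Among the beta2 partners Itgam was thus by far the main one in both libraries. The alpha genes of this family lie together on chromosome 7. Itgax starts 11055 bases after the end of Itgam, and Itgad follows Itgax after another 3718 bases, all on the same strand. Along this stretch the mean level was 37.0, 2.74 and 0.04 TPM. Itgal lies 727501 bases before Itgam. Itgam shares 3450 exon bases with Gm49368 on the same strand, listed at 0.305 ± 0.332 TPM, so reads there could belong to either gene and the level of Itgam is uncertain to that extent. Gm49368 also reaches beyond Itgam towards Itgax.

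The beta1 family was the other large group. Itgb1, the subunit shared by most matrix receptors (chr8:128685654-128733200, plus strand), had 121 and 96.8 TPM. Its most abundant possible partner, Itga4, which binds VCAM1 and fibronectin (chr2:79255426-79333123, plus strand), had 79.0 and 66.7 TPM and was the highest alpha subunit in both libraries. Itga4 held 32.9 ± 0.0759% of all alpha TPM and 48.3% of alpha counts, and its main transcript has 9767 bases. Itga9, a close relative of Itga4, stood at 5.76 and 4.09 TPM, 15.0 ± 1.83-fold lower in the gene table and 5.94 ± 0.658-fold lower in the second quantification. Itga5, the fibronectin receptor chain, had 25.1 and 22.4 TPM. In contrast to Itgb2, Itgb1 had 0.614 ± 0.0221 times the summed TPM of the 12 alpha subunits that can pair with it. By the second quantification it had 0.518 ± 0.0331 times the sum of these partners. Some of these partners, such as Itga4 and Itgav, also pair with other beta subunits.

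Among alpha subunits for basement membrane and collagen, Itga6 alone passed 1 TPM in both libraries in the gene table. Itga7 did so too in the second quantification, at 2.67 ± 1.05 TPM. Itga6, a laminin receptor chain, had 56.1 and 45.5 TPM and was the second highest alpha subunit. The other laminin-binding subunits had few or no counts in the gene table: Itga7 had 2 and 0 counts, Itgb4, the hemidesmosome subunit that pairs with alpha6 in epithelia, had 3 and 4 counts, and Itga3 had 0 counts in both libraries. A count of 0 allows up to 3 counts, which for Itga3 comes to 0.0536 and 0.0829 TPM in replicates 1 and 2. None of the 4 collagen-binding alpha subunits reached 1 TPM in the gene table. Itga2 came closest with 0.81 and 0.72 TPM, followed by Itga10 with 0.38 and 0.58 TPM, Itga1 with 0.30 and 0.32 TPM and Itga11 with 0.23 and 0.25 TPM. All 4 passed 0.1 TPM in both libraries, so they were low rather than without reads. By the second quantification Itga1 had 0.744 and 2.17 TPM and Itga2 had 0.507 and 1.15 TPM. There too none of the 4 passed 1 TPM in both libraries. Itga2 and Itga1 are neighbours, 20995 bases apart on chromosome 13. Itga10 and Itga1 share 1739 and 685 exon bases with overlapping same-strand genes and are uncertain.

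The alphaV integrins bind proteins that carry the RGD motif, among them vitronectin and osteopontin, and activate latent TGF-beta. Itgav had 24.8 and 21.04 TPM. Of the beta subunits that join it, Itgb5 had 45.8 and 25.4 TPM and Itgb3 had 5.55 and 5.56 TPM, a ratio of 6.41 ± 2.61. Itgb8 had 6 and 2 counts and Itgb6 had 0 in both libraries. Itgb3 can also pair with Itga2b, the platelet subunit, which stayed under the threshold at 0.75 and 0.71 TPM. The platelet markers Pf4 and Gp1ba stood at 39.7 ± 9.09 and 1.10 ± 0.0707 TPM and Gp5 at 0.01 ± 0.0141 TPM, and their part in the Itga2b and Itgb3 values was not tested. Itga8, the nephronectin receptor chain, had 0.02 and 0.36 TPM. Itgb7, which pairs with alpha4 in gut homing or with alphaE, had 4.89 and 4.92 TPM. Its E-cadherin-binding partner Itgae had 0.52 and 0.50 TPM.

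The Cd-named tetraspanins were all detected, 6 of 6. Cd53, a tetraspanin of leukocytes (chr3:106759921-106790149, minus strand), had 129 and 107 TPM and held 34.6 ± 2.01% of the summed tetraspanin TPM. In replicate 2 it was the highest of all 52 members. Its range overlapped those of Itgb2 and Itgb1, and the order of these 3 genes as a whole is not fixed by the data. Within each library Cd53 stood above Itgb1 by both quantifications, while the place of Itgb2 changed. Cd37, likewise a leukocyte tetraspanin, had 66.1 and 49.5 TPM, which put Cd53 2.06 ± 0.156-fold above it. Cd81, a tetraspanin found in most tissues, had 27.9 and 23.5 TPM. Cd9, known for its part in membrane fusion, had 30.9 and 12.1 TPM, so it ranked above Cd81 in replicate 1 and below it in replicate 2. Cd151, the partner of laminin-binding integrins, had 13.1 and 12.5 TPM, and Cd82, which restrains motility in tumour cells, had 10.4 and 9.53 TPM. Cd63, a lysosomal tetraspanin outside the naming rule, stood at 194 ± 15.2 TPM, above every member. It was the only 1 of 5 tetraspanin genes outside the rule that was detected.

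The TspanC8 tetraspanins escort the protease ADAM10 to the cell surface. Of the 6, Tspan14 was the highest with 25.2 and 25.4 TPM, Tspan17 had 5.15 and 3.71 TPM, and Tspan5 was the lowest of all detected members with 1.65 and 1.02 TPM. Tspan10 with 0.18 and 0.52 TPM and Tspan33 with 0.28 and 0.32 TPM did not reach the threshold, and Tspan15 had 0 counts in both libraries. Tspan14 therefore made up most of the TspanC8 total of 31.7 ± 1.03 TPM.

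Of the 14 other Tspan genes 5 were detected. Tspan4, known from the retraction fibres of migrating cells, had 23.6 and 13.0 TPM, Tspan31 had 22.5 and 14.1 TPM, and Tspan3 had 16.0 and 11.6 TPM. Tspan32, a tetraspanin of blood cells, had 10.6 and 7.90 TPM, and Tspan13 had 4.26 and 4.07 TPM. The nearest below the threshold was Tspan18, with 0.24 and 0.92 TPM, and the remaining 8 had mean levels from 0 to 0.30 TPM. Tspan6 and Tspan11 had 0 counts in both libraries. Some tetraspanin genes lie near each other on a chromosome. Cd151 and Tspan4 lie 3766 bases apart and Tspan32 and Cd81 33094 bases apart, all detected. Tspan11 and Tspan9, 7418 bases apart, were not detected. Of Tspan18 and Cd82, 84605 bases apart, only Cd82 was. The sources used here do not say how reads were assigned to strands, and members whose exons overlap a gene on the other strand are uncertain. Tspan31 shares 641 exon bases with Cdk4, listed at 40.4 ± 10.8 TPM, and Tspan4 shares 292 with Chid1, at 9.61 ± 1.98 TPM. Itga4 shares 1124 with Cerkl, at 3.15 ± 1.12 TPM, Itgav 634 with Gm13684, and Cd9 218 with Gm26728.

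Of 78 genes in 4 lists of integrin and tetraspanin partners, 50 were detected (64.1%), against 46.0% of protein-coding genes. These lists were chosen with earlier results of these data known, so the higher share is no result about the partners. Among 26 activators and tail adaptors 20 were detected, led by Dab2 at 199 ± 6.19 TPM, the talin gene Tln1 at 158 ± 51.2 TPM and the haematopoietic kindlin Fermt3 at 87.5 ± 12.6 TPM, while the epithelial kindlin Fermt1 had 0 counts. Among 15 kinases and signalling proteins 12 were detected, led by the adaptor Fyb at 288 ± 19.5 TPM, Syk at 136 ± 5.85 TPM and Skap2 at 90.3 ± 3.63 TPM, and the lowest was Bcar1 at 0.02 TPM. Ligands and counter-receptors were detected in 6 of 21 cases. The highest were Spp1, osteopontin, at 493 ± 170 TPM, Thbs1, thrombospondin, at 111 ± 62.7 TPM and Tgfb1 at 91.5 ± 15.4 TPM, and Madcam1, the gut ligand of alpha4beta7, had 0 counts. Of 16 tetraspanin partners 12 were detected, with the syntenin gene Sdcbp at 164 ± 34.1 TPM, Cd36 at 64.1 ± 5.42 TPM and Cd44 at 63.8 ± 6.13 TPM, and the lowest, Ptgfrn, at 0.16 ± 0.17 TPM.

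In nuclear RNA a gene's reads can come from transcripts that are not annotated as coding, such as those with a retained intron. The members have 285 annotated transcripts: 168 protein-coding, 57 processed transcripts without a reading frame, 48 with a retained intron and 12 marked for nonsense-mediated decay. Of the summed TPM of the 27 detected members, 13.9 ± 3.04% lay in transcripts not annotated as protein-coding, against 27.6 ± 0.675% over the 10123 detected protein-coding genes. Retained intron transcripts held 4.34 ± 0.704% in the members and 19.8 ± 0.218% in the coding genes. Both shares of the members depended on the estimate: outside coding transcripts lay 24.1 ± 1.17% by the second quantification and 7.71 ± 1.85% of expected counts, against 37.4 ± 0.695% and 20.2 ± 0.926% in the coding genes. For retained introns these were 9.48 ± 0.183% and 1.17 ± 0.203% in the members, against 22.6 ± 0.166% and 15.2 ± 0.487% in the coding genes, so the members stood lower each time. Taking each gene's own share, a summary added after seeing the data, the median was 12.8 ± 5.03% over members and 29.3 ± 0.558% over coding genes. Any retained intron transcript is annotated for 14 of the 27 members (51.9%), against 62.5% of the coding genes, and the part of this in the difference was not tested. Between the families, integrins had 17.4 ± 4.60% outside coding transcripts and tetraspanins 8.62 ± 0.725% of their summed TPM. This order did not hold for the median of the genes' own shares, which was 10.7 ± 8.36% over integrins and 13.2 ± 4.05% over tetraspanins, with overlapping values. Retained intron transcripts held 2.23 ± 0.513% of integrin TPM and 7.46 ± 0.981% of tetraspanin TPM. In processed transcripts the members stood higher, with 7.55 ± 0.310% of their TPM against 5.26 ± 0.210% in the coding genes. The members were also the higher ones by expected counts. By the second quantification these shares were 11.7 ± 0.450% and 11.2 ± 1.02%, with overlapping spreads. Split by family, processed transcripts held 12.1 ± 0.713% of integrin TPM and 0.837 ± 0.274% of tetraspanin TPM. Itga4 and Itga6 together held 90.8 ± 1.86% of this integrin processed transcript TPM, as the plot of transcript types shows gene by gene. The highest transcript was not protein-coding in 3 of 27 members (Itga6, Tspan32 and Tspan5), with a background of 17.9% of coding genes. In replicate 1 alone this held only for Tspan5, and by expected counts only for Tspan32. The second quantification also gave 3 such members, Itgal, Itgb7 and Tspan32, so Tspan32 was the one found by both.

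**Figure D2:**
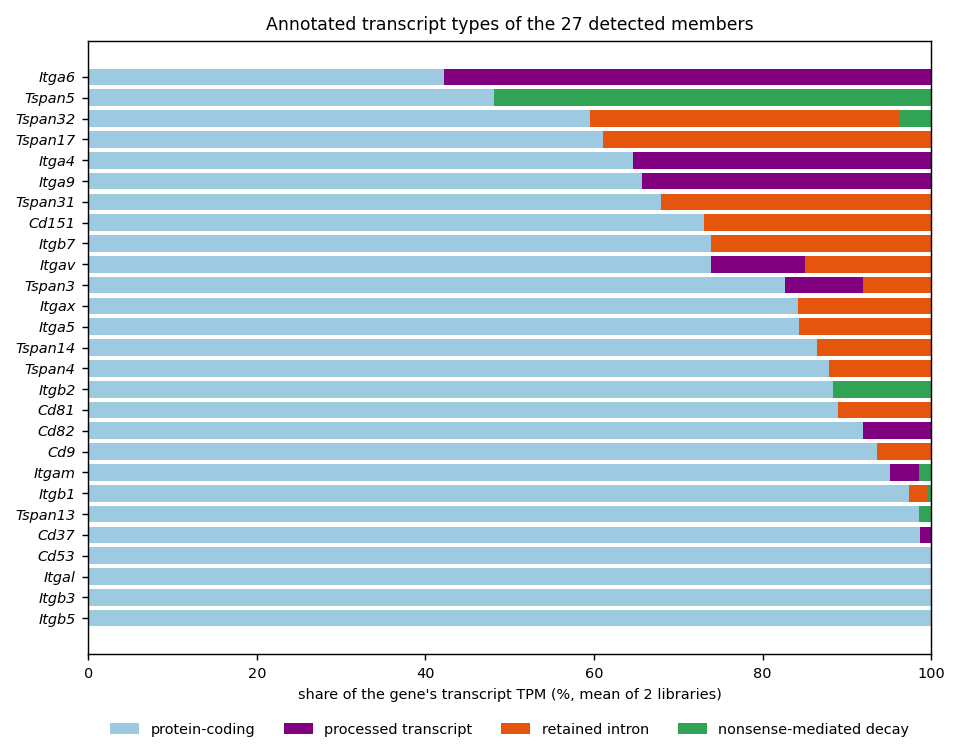
Share of each detected member's transcript TPM by annotated transcript type, in percent, as the mean of the 2 libraries. Itga6 stands at the top with 57.7% outside protein-coding transcripts, and Cd53, Itgal, Itgb3 and Itgb5 at the bottom with 0%.

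The 6 detected members with the largest share outside coding transcripts were Itga6 with 57.7 ± 4.93%, Tspan5 with 51.9 ± 1.24%, Tspan32 with 40.5 ± 5.14%, Tspan17 with 39.0 ± 3.21%, Itga4 with 35.3 ± 4.69% and Itga9 with 34.3 ± 15.6%. By the second quantification these shares were 61.0 ± 4.85% for Itga6, 18.9 ± 3.83% for Tspan5, 59.8 ± 3.25% for Tspan32, 23.98 ± 4.82% for Tspan17, 48.6 ± 4.80% for Itga4 and 16.5 ± 9.15% for Itga9. There Itgb7 with 56.4 ± 8.40%, Itga5 with 50.6 ± 6.57%, Itgax with 48.0 ± 1.11% and Itgal with 41.9 ± 14.9% were among the members above Tspan5, Tspan17 and Itga9. So were Tspan3 with 47.1 ± 3.46%, Tspan31 with 46.8 ± 0.327%, Cd9 with 44.2 ± 4.64% and Itgav with 42.9 ± 8.21%. The ranking thus depends on the estimate in both families. In Itga6 the processed transcript Itga6-203 had 21.7 and 19.1 TPM, beside 22.6 and 15.1 TPM for the coding Itga6-201. The 2 forms were thus near equal, and their order differed between libraries. Itga6-203 has 3 exons and 2721 bases, of which 1031 lie in exons of Itga6-201 and 1658 lie beyond its 3′ end, so reads from a longer 3′ end of the coding transcript cannot be told apart from it there. Integrin alpha6 is known in an A and a B form that differ in the cytoplasmic tail. Itga6-201 contains an alternative exon of 130 bases, chr2:71853534-71853663, as its exon 25, and Itga6-202, which skips it, had 0 TPM in both libraries by both quantifications. Itga4 had a single coding transcript, Itga4-201, with 48.5 and 45.3 TPM. Its 4 processed transcripts included Itga4-205 with 13.9 and 9.63 TPM and Itga4-204 with 8.11 and 5.51 TPM. Of their bases, 76.1% and 57.3% lie in introns of Itga4-201. Tspan32-212, the highest transcript of Tspan32 on average, is a single exon with 90.1% of its bases in introns of Tspan32-202, and had 2.27 and 2.17 TPM. In Tspan5 the highest was Tspan5-207, marked for nonsense-mediated decay, with 0.87 and 0.32 TPM.

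**Figure D3:**
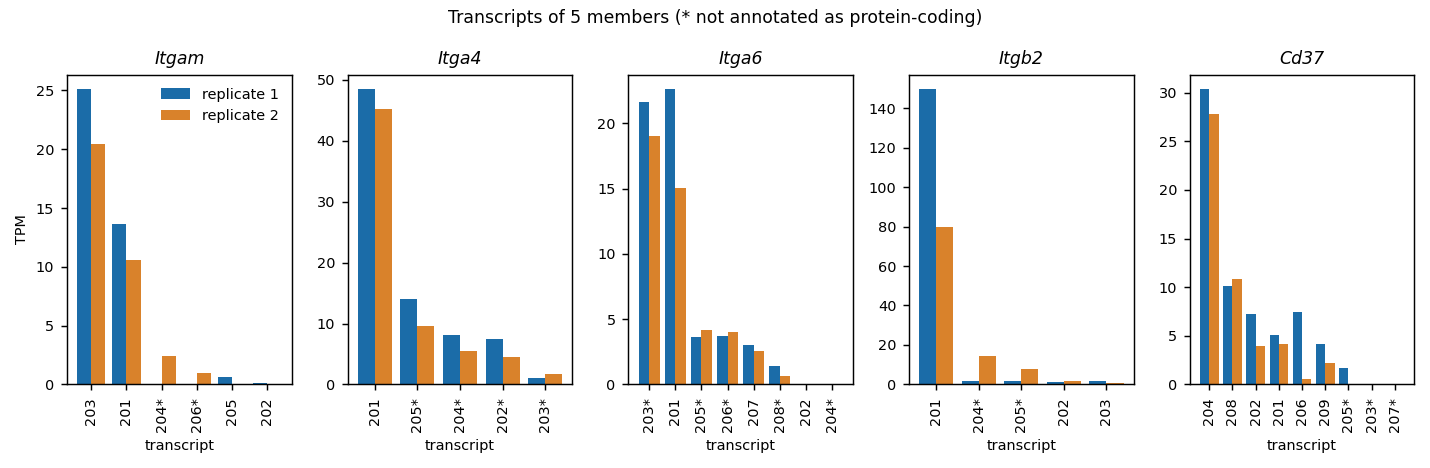
TPM of every annotated transcript of Itgam, Itga4, Itga6, Itgb2 and Cd37 in replicate 1 (left bars) and replicate 2 (right bars), ordered by mean. Itgam-203 stands above Itgam-201 in both libraries, and the 2 leading transcripts of Itga6 change order between them.

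Cd37 was nearly all coding by annotation, with 1.29 ± 1.83% outside, yet its main transcript carries intron sequence. Cd37-204 had 30.4 and 27.9 TPM and held 51.1 ± 7.29% of the gene, against 5.09 and 4.12 TPM for Cd37-201. Its last exon, chr7:45233637-45235643 on the minus strand, has 2007 bases, of which 1344 are introns of Cd37-201. Its coding sequence has 756 bases, against 909 in Cd37-201. In Itgb2 the libraries differed in transcripts more than in the gene. The coding Itgb2-201 had 149.54 and 79.7 TPM, while Itgb2-204, marked for decay, had 1.52 and 14.2 TPM and Itgb2-205 had 1.86 and 7.98 TPM. By the second quantification Itgb2-204 had 1.70 and 3.12 TPM, a smaller gap in the same direction. Cd81 likewise shifted between coding transcripts: its short coding transcript Cd81-204 had 0 and 9.95 TPM beside 25.3 and 10.5 TPM for Cd81-201. At the other end, Itgb1-201 held 97.4 ± 0.47% of its gene and Itgb3-201 100%, and Cd53 has 1 annotated transcript. In all, the leading transcript held over 80% of the gene in 9 of 27 members and over 50% in 22. It was the same in both libraries for 23 of 27 and in both quantifications for 20 of 27.

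Among the 25 members not detected, 20 had a transcript above 0, and in 8 of them the highest one was not coding. No share over other coding genes under the threshold stands beside this count, so it is no result about the members. Some of the 8 rest on few counts, such as Itga7 with 2 and 0, Tspan10 with 6 and 3 and Itgb8 with 6 and 2. Itgae was listed through its retained intron transcript Itgae-202 alone, with 0.52 and 0.50 TPM, and the gene Haspin lies within it on the other strand. Tspan18 was listed almost wholly through the processed transcript Tspan18-204, which had 0.23 and 0.92 TPM and 92.1% of its bases in introns of Tspan18-202. In Tspan33 the retained intron transcript held 50.8 ± 1.07%. Itga2 had all its TPM in the coding Itga2-201, but its 2 annotated transcripts are both coding, so annotation fixed this share. Itga11 and Tspan1 each have a transcript not annotated as coding, and had all their TPM in coding ones in the gene table. Under the threshold the listed TPM thus lay in coding transcripts in some members and in transcripts not annotated as coding in others.

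Between the 2 libraries, 28 members had a mean of at least 50 counts and were compared after TMM scaling, with 1 added to each scaled count. Cd9 was the only one more than 2-fold apart, with 541 scaled counts in replicate 1 and 230 in replicate 2, a log2 difference of 1.23. The background was 1.48% of genes more than 2-fold higher in replicate 1 and 0.465% more than 2-fold higher in replicate 2. The second quantification put Cd9 at 0.83, under 2-fold. Most members leaned the same way: 25 were higher in replicate 1 and 3 in replicate 2 (Itgb7, Tspan14 and Itgb3), and the median was 0.22, against -0.00 over all 11611 genes compared. After Cd9 the largest were Tspan4 at 0.82, Itgb5 at 0.76 and Cd81 at 0.72, and the smallest in size was Itgb7 at -0.01. With 1 library on each side these differences have no replicate check, and the RNA input also differed between the libraries, which was not tested as a part of them. Tspan18, below the count minimum of 50, had 19 and 47 counts. With a minimum mean of 10 counts it was the second of 36 members past 2-fold, and with no minimum 7 of 52 members were. The background at 10 counts was 3.20% of 15396 genes higher in replicate 1 and 1.96% higher in replicate 2. With no minimum it was 3.80% and 3.58% of 55536 genes.

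**Figure D4:**
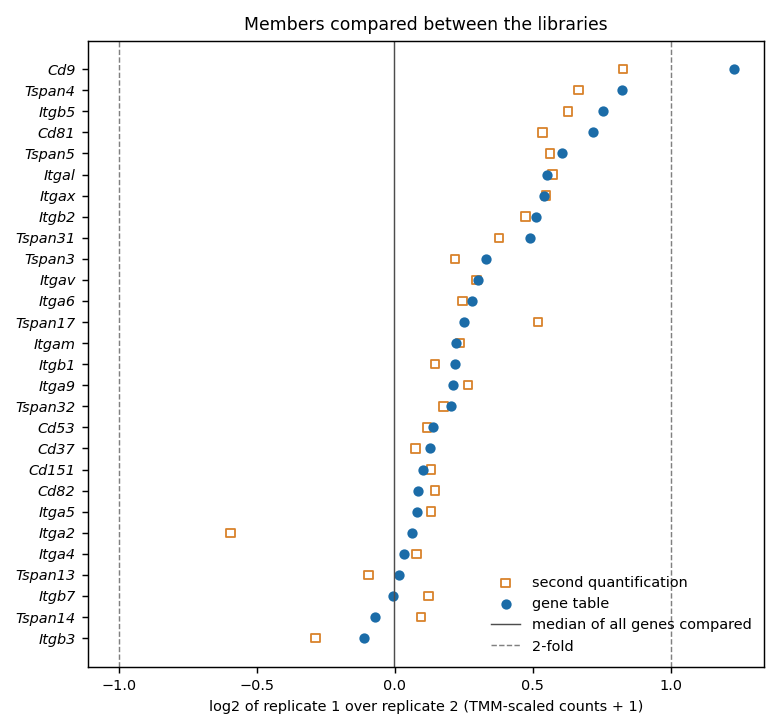
Log2 of replicate 1 over replicate 2 for the 28 members compared, from the second quantification (squares) and the gene table (circles), with the median of all genes as a solid line. Cd9 passes the 2-fold line in the gene table at 1.23 and not in the second quantification at 0.83.

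The authors also deposited a second quantification of the same reads, here summed per gene. Of 34 members with at least 1 TPM in either table, 3 were more than 2-fold higher in the second quantification and 0 more than 2-fold lower, on the log2(TPM + 1) scale, with a background of 27.4% of genes higher and 2.08% lower. Of 11725 protein-coding genes 1181 were higher and 179 lower, so the members' share of higher genes was near that of coding genes. The members' median was -0.34, the same as for protein-coding genes and below that of all genes, -0.13. Itga7 had 2.67 ± 1.05 TPM in the second quantification, against 0.03 ± 0.0424 TPM in the gene table. Tspan15 had 1.39 ± 0.52 TPM, against 0 in the gene table, and Itgad had 1.45 ± 0.544 TPM, against 0.04 TPM. These 3 genes and Itga2b passed 1 TPM in both libraries there and not by the TPM of the gene table. In replicate 1 alone 8 members were past 2-fold, 2 higher and 6 lower in the second quantification, and in replicate 2 alone 6 were, all higher. No background stands beside these single-library counts. After rescaling both tables to protein-coding genes 12 of 42 members were more than 2-fold higher and 0 lower. The background was 3441 of 14445 coding genes higher and 31 lower, and 10745 of 26083 among all genes higher and 313 lower. The rescaled medians were 0.28 for members, 0.19 for coding genes and 0.54 for all genes, so their sign depends on the scale. The retained intron transcript Itga7-205 held 1.91 and 3.41 TPM there and 0 in the gene table, with 91.2% of its bases in introns. Tspan15-205, all of it in introns, held 0.467 and 1.26 TPM, beside 0.559 and 0.507 TPM for the coding Tspan15-201, and Itgad-203, a coding fragment of 404 bases, held 0.947 and 1.25 TPM. Itga1 was next, 0.91 higher on the log2 scale. The farthest lower were Itgb2 at -0.97, with 66.1 ± 4.01 TPM in the second quantification and 130.2 ± 36.4 TPM in the gene table, followed by Itgav at -0.84, Cd37 at -0.84 and Itga6 at -0.79. These 4 stayed below 0 after rescaling, at -0.45 for Itgb2, -0.39 for Itgav, -0.35 for Cd37 and -0.31 for Itga6. Itga3, Tspan6 and Tspan11 were at 0 in both tables.

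**Figure D5:**
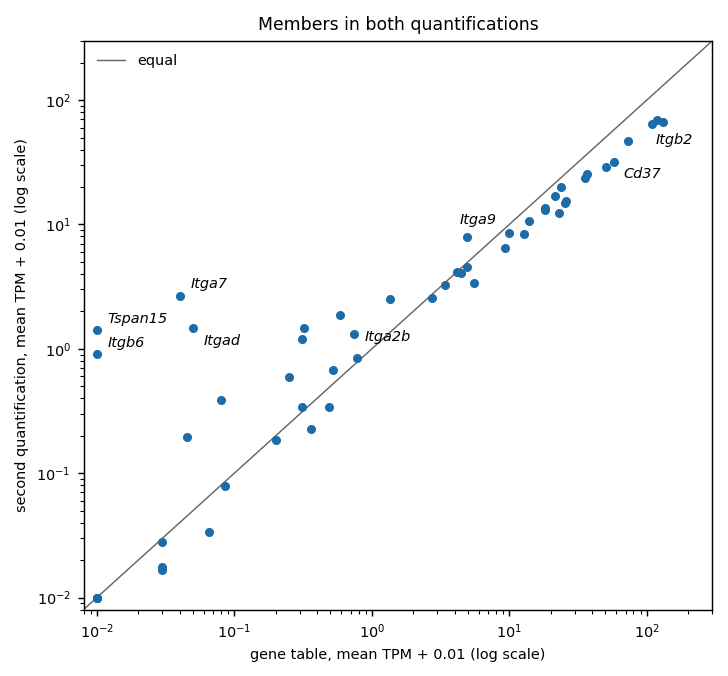
Mean TPM + 0.01 of the 52 members in the second quantification (vertical) and the gene table (horizontal), both on log axes, with the line of equal values. High members lie below the line, and Itga7, Tspan15, Itgad and Itgb6 lie far above it.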

How the data were processed

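Levels were taken from the gene and transcript tables of 2 libraries. The deposited tables rest on mm10 and GENCODE M21, per the file headers and accompanying text files. The programs and the handling of strand are not given in the sources used here. Column names are those RSEM writes for the gene tables and kallisto writes for the second quantification. The authors deposited expected counts, estimates that were rounded here for scaling. The authors' TPM values are relative to all entries of a table. Interval bounds of the deposited TPM, recorded as a signal, were read but support no result. Entries that name no annotated gene, 1.18% and 0.405% of counts, were left out. The limit for a count of 0 was 3 counts, converted with each gene's effective length, and covers counting error only. Gene types, exons and overlaps came from the M21 annotation.

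The members, the gene lists and the markers were chosen with earlier results of these data known. Named were, by rule, all detected integrins and Cd-named tetraspanins, the 8 highest Tspan genes, the 6 TspanC8 genes, the 3 members on each side of 1 TPM, members more than 2-fold apart between libraries, the 6 with the largest non-coding share, the 4 farthest apart between quantifications in each direction, and the 3 highest and the lowest gene of each other list. A gene that this rule allows is left out here. Other transcripts and genes named were chosen after their values were seen. Library differences used edgeR 4.0.16 TMM factors (R 4.3.3), with DESeq2 1.42.0 size factors as an alternative, and were tested on simulated counts. Other tools were Python 3.11.15, numpy 2.4.6, pandas 2.3.3 and matplotlib 3.10.9. Alternatives were other detection thresholds, pseudocounts, filters, scalings, the posterior mean TPM, the second quantification and each library alone.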

Additional observations from a re-analysis of the deposited data

How the results depend on the processing

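The count of detected members was 27 with each library alone, 37 at 0.1 TPM, 20 at 5 TPM, 35 by at least 10 counts, 30 by posterior mean TPM (adding Itga2b, Tspan9 and Itgb6) and 31 by the second quantification. The median level of the detected members was 37.3 TPM after leaving out mitochondrial and the 10 highest genes and 60.2 TPM after rescaling to protein-coding genes, by construction of these scales. Members more than 2-fold apart between libraries numbered 2 with a mean of at least 10 counts and 7 with no filter, where genes of a few counts enter. The shares over all genes rose as well, with no filter to 3.80% higher in replicate 1 and 3.58% higher in replicate 2. The share outside coding transcripts was 24.1% by the second quantification and 7.71% of expected counts, and for retained intron transcripts 9.48% and 1.17%, with 2.08% as the median of the genes' own shares. With either library left out these shares ranged from 11.7% to 16.0% and from 3.84% to 4.84%. Members with a non-coding leading transcript numbered 3 by the second quantification, of which Tspan32 alone was shared, 1 by counts (Tspan32) and 1 to 3 with a library left out. Members more than 2-fold apart between quantifications numbered 0 at a mean of at least 5 TPM, 6 with a pseudocount of 0.1, 12 after rescaling to protein-coding genes and 6 to 8 with a library left out. After that rescaling 3441 of 14445 coding genes were more than 2-fold higher too. Without replicate 2, 6 of the 8 were lower in the second quantification. Otherwise the cause of these changes was not tested. Of 162 alternative values for the levels of single members 81 moved by more than the spread between libraries, but this count does not measure robustness. Leaving out 1 of 2 libraries cannot move a mean past its SD, and both rescalings raise every level by construction. Only the posterior mean TPM and the second quantification could go either way. Of 196 alternative values for the library differences 1 changed side of the 2-fold line, Cd9. No paired analysis was possible because there is 1 group. Depth limits members of a few counts, where 3 counts stand for up to 0.516 TPM.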
